A study of Mus musculus with 6 samples.

Results

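The sarcomere and myogenic genes are 53 gene symbols, of 21006 in the deposited count table, that encode contractile proteins of skeletal, cardiac and smooth muscle or transcription factors of the muscle lineage. They were chosen by name and were sorted by known role into 18 skeletal sarcomere genes, 13 cardiac sarcomere genes, 6 genes shared by striated muscles, 9 smooth muscle and shared contractile genes and 7 regulators. All 53 symbols were in the table, and 38 passed a filter on low counts and were tested. The tissue was the branchial arches of E11.5 mouse embryos, paired swellings that build the face and throat. Cells were dissociated with papain and sorted on TdTomato, and their polyadenylated RNA was sequenced. The 3 DKO (double knockout) libraries were Ehmt1f/f and Ehmt2f/f, and the 3 control libraries were Ehmt1+/+ and Ehmt2+/+. Both groups also carried Rosa26 TdTomato/+ and Wnt1-cre, whose promoter drives Cre in neural crest and in parts of the early brain. Replicates are titled as biological, with no word on whether each is 1 embryo or several, so p-values measure the spread between these libraries.

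Ehmt1 and Ehmt2 encode the partner enzymes GLP and G9a, which place mono- and dimethylation on lysine 9 of histone H3, a mark of silent chromatin. The sarcomere is the repeating unit of striated muscle. In it, myosin heavy and light chains pull on actin filaments that carry tropomyosin and the calcium-sensing troponin complex, while titin, nebulin and the alpha-actinins set its length and anchor it at the Z-disc. The skeletal muscle cells of the arches descend from head mesoderm and not from neural crest, and their fate is set by Myf5, Myod1, Myog and Myf6 together with mesodermal factors that include Msc and Tcf21. Neural crest gives the connective tissue around those muscles, and smooth muscle of the great vessels.

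Total counts lay between 23414466 and 44538260 per library. Levels are TMM-scaled CPM, that is, counts divided by a library total that was scaled by the trimmed mean of M values. As a check of the labels, Ehmt2 and Ehmt1 had log2 fold changes of -1.47 and -0.81 and no overlap between groups. The labelled cell type was checked against 14 markers of neural crest and its mesenchyme, among them Twist1, Prrx1 and Sox10. Their summed level was 2185 to 2603 CPM in DKO and 2444 to 2882 CPM in control libraries, and 0 of the 14 were called different.

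A small set of contractile genes, 7 of striated and 1 of smooth muscle, had higher levels in the sorted DKO cells, and none of the tested factors that drive muscle fate was called. Of the 38 tested genes, 8 rose, 0 fell and 30 were not called at an adjusted p below 0.05 (edgeR quasi-likelihood test, Benjamini-Hochberg over all 14555 tested genes). They were the skeletal genes Myl1, Tnnt3, Neb and Tnni1, the cardiac genes Mylk3, Myh6 and Myh7, and the smooth muscle actin gene Actg2. The share that rose was 21.1% of the tested members, against 2.19% of all tested genes. Falls made up 0.818% of all tested genes, and calls in either direction 3.01%. The members had a median log2 fold change of 0.45, against -0.01 over all tested genes, and 14 of the 38 had every DKO library above every control library, which held for 14.5% of all tested genes. The members and classes were chosen with earlier results of these data known, so these shares describe the list and do not test it.

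Most of these genes were low, and the low level bears on both counts. Among all tested genes with a control mean under 5 CPM, 5.85% rose, and among the 30 tested members below that level 8 did. The filter asks for 0.254 CPM (10 counts in a library of median size) in 3 libraries. Myl1 passed it through its DKO libraries alone and Myh7 with 1 or 2 control libraries, so for Myl1 the filter itself asked for a difference. The 32 tested members that had all 3 control libraries over that minimum held 6 of the 8 rises, where 1.66% of all such genes rose. Without any 1 of DKO replicate 1, DKO replicate 2 or control replicates 1 to 3, 4 members were called, and these were Myl1, Tnnt3, Neb and Mylk3 each time. Without DKO replicate 3 there were 10, all higher.

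**Figure D1:**
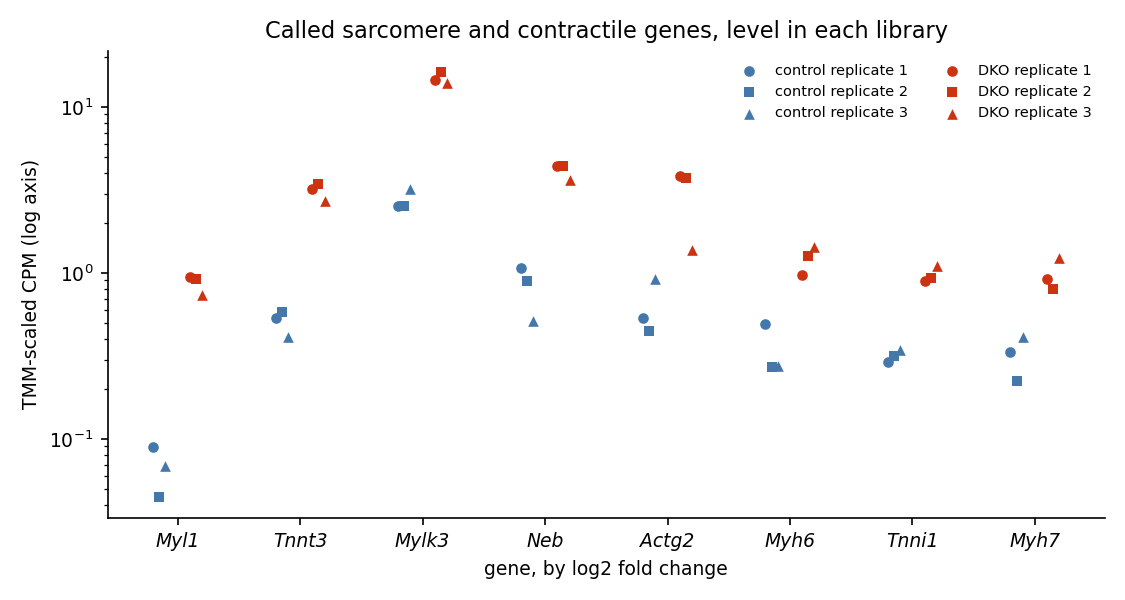
Level of the 8 called genes in each library, as TMM-scaled CPM on a log axis, with controls in blue, DKO in red and the replicate number given by the marker shape. Every red point lies above every blue point of the same gene, Mylk3 is the most abundant in both groups, and DKO replicate 3 lies nearest the controls for Actg2.

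Windows around annotated starts, from RefSeq's promoter table, are shown for the called members Mylk3, Myl1, Tnni1 and Myh6, 1 window each, and for the fast light chain gene Mylpf, which was not called, because these are the stretches where the members that rose can be compared by sequence. Each runs 5′ to 3′ on the gene's strand, from 250 bases before to 50 bases after a start (GRCm38.p6). Capitals mark matches to CANNTG, the E-box bound by MyoD-family and many other factors.
Mylk3, chr8:85380992-85381291, minus strand: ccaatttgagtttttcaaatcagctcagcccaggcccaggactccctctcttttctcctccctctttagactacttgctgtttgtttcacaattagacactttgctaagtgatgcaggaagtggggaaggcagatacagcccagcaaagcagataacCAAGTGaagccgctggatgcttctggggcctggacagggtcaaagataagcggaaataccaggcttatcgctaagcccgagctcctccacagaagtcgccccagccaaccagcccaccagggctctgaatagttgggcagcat
Myl1, chr1:66945007-66945306, minus strand: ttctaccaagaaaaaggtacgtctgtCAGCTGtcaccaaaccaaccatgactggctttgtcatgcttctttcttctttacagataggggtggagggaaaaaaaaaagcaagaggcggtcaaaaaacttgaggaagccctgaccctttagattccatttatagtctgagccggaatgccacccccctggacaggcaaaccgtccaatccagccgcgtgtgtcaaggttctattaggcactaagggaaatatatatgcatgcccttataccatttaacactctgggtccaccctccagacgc
Tnni1, chr1:135799171-135799470, plus strand: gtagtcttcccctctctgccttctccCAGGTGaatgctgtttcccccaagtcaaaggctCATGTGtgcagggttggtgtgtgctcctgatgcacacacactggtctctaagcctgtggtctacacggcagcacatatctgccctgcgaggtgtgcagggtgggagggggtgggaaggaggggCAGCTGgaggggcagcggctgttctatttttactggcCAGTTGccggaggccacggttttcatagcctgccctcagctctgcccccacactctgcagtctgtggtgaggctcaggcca
Myh6, chr14:54966558-54966857, minus strand: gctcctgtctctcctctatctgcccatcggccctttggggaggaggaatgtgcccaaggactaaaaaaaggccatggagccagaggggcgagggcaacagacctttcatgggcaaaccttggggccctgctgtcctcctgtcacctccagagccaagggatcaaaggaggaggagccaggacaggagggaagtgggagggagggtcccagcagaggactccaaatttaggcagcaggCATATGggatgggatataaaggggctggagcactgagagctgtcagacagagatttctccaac
Mylpf, chr7:127211358-127211657, plus strand: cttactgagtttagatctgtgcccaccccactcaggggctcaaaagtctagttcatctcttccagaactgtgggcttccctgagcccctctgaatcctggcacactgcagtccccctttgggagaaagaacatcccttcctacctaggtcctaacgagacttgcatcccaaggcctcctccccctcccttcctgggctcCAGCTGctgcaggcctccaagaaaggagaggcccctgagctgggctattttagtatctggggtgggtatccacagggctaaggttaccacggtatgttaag

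The table held 50 windows for 41 of the 53 genes, among them 8 windows for 5 of the called genes; those of Myh7 and the second windows of Mylk3 and Tnni1 are counted but not printed, and Tnnt3, Neb and Actg2 have no window shown. An E-box match was found in 7 of the 8 windows of called members, in 21 of 28 windows of members tested but not called, and in 72.3% of all 32851 windows in the table. The second window of Mylk3 was the one without. A MEF2-type pattern (CTA, any 4 bases, TAG) was in 0 of the 8 windows, in 5 of the 28 and in 3.69% of all windows. Sites with other ends were not searched for. The CArG box, the site of serum response factor, was in 0 of the 8, in 7 of the 28 and in 1.63% of all windows. All 3 motifs read the same on both strands. Windows of the same gene overlap for Tnni1, Myh7 and Ldb3, so a site in a shared stretch is counted in each window. CpG dinucleotides numbered 2 to 7 in the windows of called members, with a median of 5, against a median of 7 over all windows and of 6 over the members' windows. The uncalled windows reached further, with 32 CpG in a window of Nebl and 27 in that of Tpm1. A match is a run of letters and not a shown binding site.

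Among skeletal sarcomere genes, 4 of 11 tested rose and 7 were not called, with a median log2 fold change of 0.66. Myl1 (chromosome 1, 66924295 to 66947932, minus strand) encodes the essential light chains of fast skeletal myosin. Its level was 0.943, 0.914 and 0.738 CPM in DKO replicates 1 to 3, and 0.0895, 0.0449 and 0.0684 CPM in control replicates 1 to 3. These levels rest on 108 counts over the 3 DKO and 7 counts over the 3 control libraries. The gene was close to undetected in controls and even among the DKO libraries, with a log2 fold change of 3.53 with an SE of 0.39 (by edgeR, adjusted p = 0.00353).

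Tnnt3 (chromosome 7, 142498771 to 142516213, plus strand) encodes fast skeletal troponin T, which ties the troponin complex to tropomyosin. It measured 3.21, 3.43 and 2.7 CPM in the DKO libraries and 0.537, 0.583 and 0.41 CPM in the controls, a log2 fold change of 2.60 with an SE of 0.25 (by edgeR, adjusted p = 0.00204). Neb (chromosome 2, 52136640 to 52338798, minus strand) encodes nebulin, the giant protein that runs along the thin filament. Its levels were 4.42, 4.39 and 3.64 CPM against 1.07, 0.897 and 0.513 CPM, a log2 fold change of 2.30 with an SE of 0.29 (by edgeR, adjusted p = 0.00621). The lowest DKO library of each of these genes was replicate 3, and it still stood more than 3 times as high as the highest control library.

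Tnni1 (chromosome 1, 135783033 to 135810989, plus strand) encodes slow skeletal troponin I, which blocks contraction at low calcium and is also made in the embryonic heart. It stood at 0.889, 0.937 and 1.10 CPM in DKO and at 0.291, 0.314 and 0.342 CPM in control libraries. The groups were tight and apart, with a log2 fold change of 1.63 with an SE of 0.29 (by edgeR, adjusted p = 0.0242). The call ended without DKO replicate 1 or 2 or any 1 control library (adjusted p between 0.0678 and 0.0976), while the log2 fold change stayed between 1.53 and 1.69.

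Other fast or embryonic fibre genes did not pass the test. Tnni2, fast skeletal troponin I, had 0.781, 0.708 and 0.492 CPM in DKO against 0.313, 0.314 and 0.479 CPM in controls (log2 fold change by edgeR 0.84 with SE 0.34, adjusted p = 0.217). The embryonic myosin heavy chain gene Myh3 had 3.61, 2.63 and 2.88 CPM against 2.33, 1.75 and 1.64 CPM (log2 fold change 0.66 with SE 0.24, adjusted p = 0.168). For both genes the groups did not overlap, though Tnni2 in DKO replicate 3 came close to control replicate 3. Mylpf, the fast regulatory light chain gene, named after its values were seen, overlapped between groups, with 2.51, 2.17 and 1.74 CPM against 1.34, 1.48 and 1.95 CPM (log2 fold change 0.43 with SE 0.25, adjusted p = 0.365).

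The most abundant uncalled skeletal genes leaned the other way. Actn3, the alpha-actinin of fast fibres, had 3.23, 3.45 and 4.13 CPM in DKO against 4.32, 4.53 and 5.23 CPM in controls (log2 fold change by edgeR -0.38 with SE 0.18, adjusted p = 0.282). Its DKO libraries all lay below its control libraries. Mybpc1, the slow myosin-binding protein C gene, had 3.42, 4.11 and 5.88 CPM against 5.28, 4.49 and 4.85 CPM, which overlapped (log2 fold change -0.13, SE 0.23). The remaining 2 tested skeletal genes, Acta1 and Tnnt1, had log2 fold changes of 0.53 and -0.09.

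The adult and perinatal myosin heavy chain genes were too low to test in both groups. Counts over the 3 DKO and the 3 control libraries were 19 and 5 for Myh1, 28 and 5 for Myh2, 6 and 0 for Myh4, and 29 and 14 for Myh8. None of them passed the filter on low counts, nor did Mylk2, Tnnc2 or Mybpc2. Of the 28 DKO counts of Myh2, 19 were in replicate 3. Each of these myosin genes had a higher mean level in DKO. Myh1 and Myh4 had every DKO library above every control library, as 14.5% of all tested genes did.

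In the cardiac class, 3 of 9 tested genes rose and 6 were not called, with a median log2 fold change of 0.46. Mylk3 (chromosome 8, 85324928 to 85386340, minus strand) encodes the cardiac kinase that phosphorylates the myosin regulatory light chain. Its level was 14.4, 16.2 and 13.8 CPM in DKO replicates 1 to 3 and 2.53, 2.51 and 3.18 CPM in the controls. It had the largest counts of the called members, 1864 over the DKO and 262 over the control libraries, and the smallest adjusted p (log2 fold change by edgeR 2.43 with SE 0.16, adjusted p = 0.00049). The light chain genes of cardiac myosin were not called or were too low to test. Myl2, the ventricular regulatory light chain gene, had 1 count in DKO and 0 in control libraries, and Myl3 and Myl4 had 15 and 15, and 33 and 30 counts. Myl7, the atrial regulatory light chain gene, had 45 and 24 counts, with a log2 fold change of 0.46 with an SE of 0.41 (by edgeR, adjusted p = 0.554).

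Myh6 and Myh7, the cardiac alpha and beta myosin heavy chain genes, lie head to tail on chromosome 14 (54941921 to 54968017 and 54970684 to 54994626, minus strand) with 2.67 kb between them. Myh6 had 0.97, 1.26 and 1.43 CPM in DKO against 0.492, 0.269 and 0.273 CPM in control libraries (log2 fold change by edgeR 1.76 with SE 0.34, adjusted p = 0.0344). Myh7 had 0.916, 0.80 and 1.23 CPM against 0.335, 0.224 and 0.41 CPM (log2 fold change 1.57 with SE 0.34, adjusted p = 0.0495). Both were highest in DKO replicate 3, and neither overlapped between groups. Their longest coding transcripts in GENCODE M21 matched at 92.6% of aligned bases, with an identical run of 245 bases, so reads could have been shared between them and the pair is uncertain as separate results. The Myh6 call held without DKO replicate 3 and ended without any other 1 library (adjusted p between 0.0589 and 0.133). The Myh7 call ended without any 1 library (0.0559 to 0.173), with RLE size factors (0.0508), with no filter (0.0505) and with limma-voom (0.0595).

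Other cardiac thin filament and Z-disc genes were not called. Nebl, which encodes nebulette, had 4.34, 5.07 and 7.04 CPM in DKO against 5.55, 4.08 and 5.13 CPM in controls (log2 fold change by edgeR 0.15 with SE 0.22, adjusted p = 0.744). Actc1, cardiac alpha-actin and an early marker of skeletal myoblasts too, had 6.76, 1.94 and 5.32 CPM against 1.81, 2.74 and 3.79 CPM (log2 fold change 0.76 with SE 0.47, adjusted p = 0.391). Actc1 was scattered, with DKO replicate 2 inside the control range. Tnnc1, troponin C of heart and slow muscle, had 0.728, 0.64 and 0.514 CPM against 0.783, 0.808 and 0.889 CPM (log2 fold change -0.40 with SE 0.27, adjusted p = 0.436). Tnni3, the adult cardiac troponin I gene, had a log2 fold change of -0.13. Tnnt2, cardiac troponin T, was too low to be tested, with 22, 25 and 7 counts against 4, 3 and 1. Without DKO replicate 3 it was called (log2 fold change 2.75, edgeR adjusted p = 0.0212), but all 3 control libraries lay under 0.254 CPM, so it passed the filter through DKO libraries alone and the filter itself asked for a difference. Mybpc3 had 2 counts in DKO and 1 in control libraries.

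**Figure D2:**
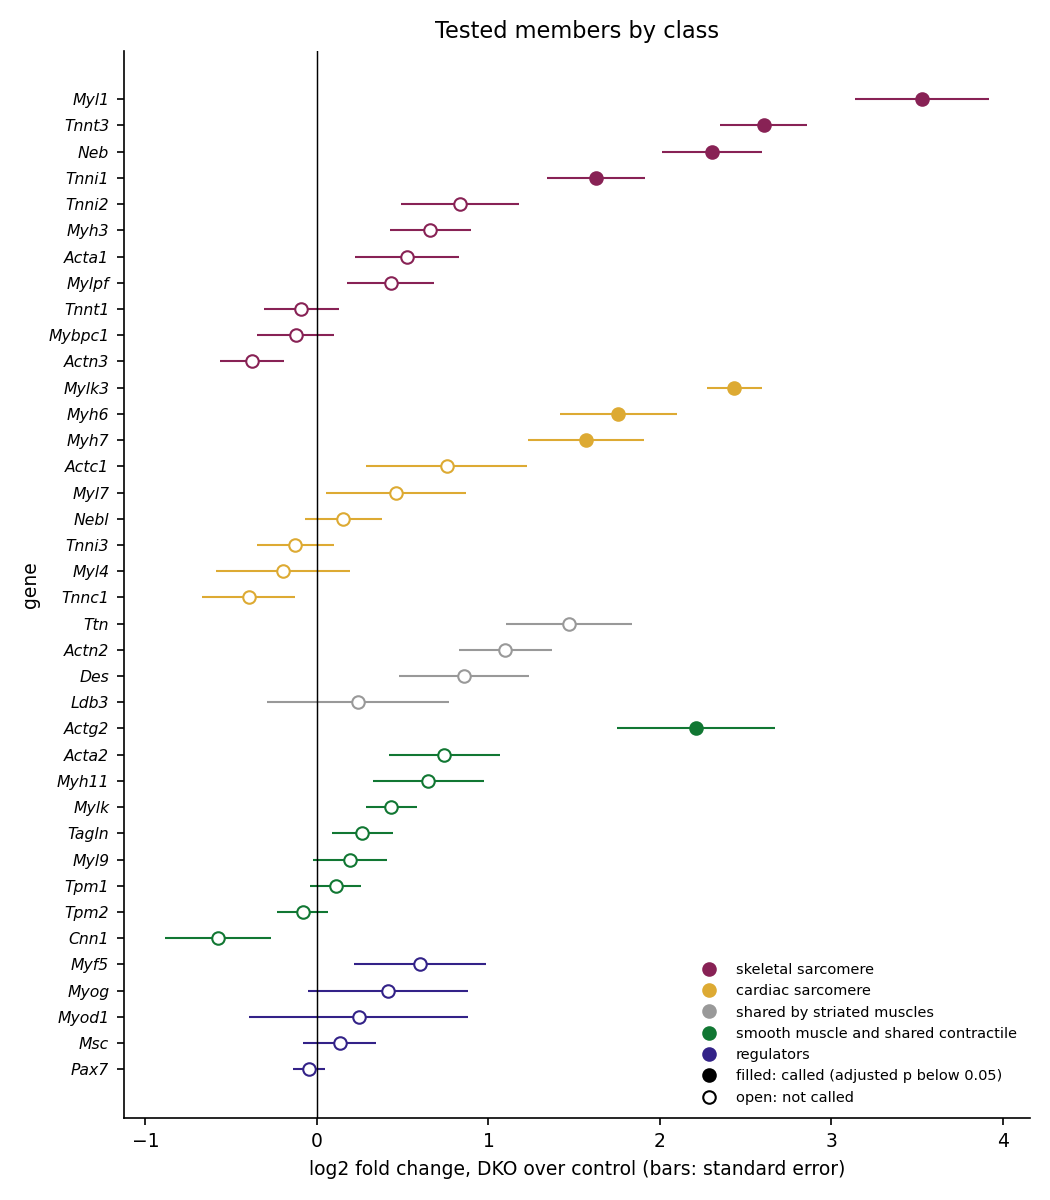
Log2 fold change, DKO over control, of the 38 tested genes, grouped by class, with bars of 1 standard error, filled points for called genes and open points for the others. Filled points occur in the skeletal, cardiac and smooth classes, and the regulators lie between -0.05 and 0.60 with none called.

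Genes that skeletal and cardiac sarcomeres share leaned up without a call, with 4 of 4 tested log2 fold changes above 0 and a median of 0.98. Over all tested genes, 7096 of 14555 were above 0. Ttn, titin, had 1.19, 1.53 and 0.738 CPM in DKO against 0.514, 0.314 and 0.376 CPM in controls (log2 fold change by edgeR 1.47 with SE 0.37, adjusted p = 0.0755). Actn2, the Z-disc alpha-actinin of heart and all skeletal fibres, had 2.88, 2.17 and 3.26 CPM against 1.30, 1.62 and 0.991 CPM (log2 fold change 1.10 with SE 0.27, adjusted p = 0.0731). Both genes separated the groups without overlap. Ttn was called without DKO replicate 3 (adjusted p = 0.0262), and Actn2 with the DESeq2 Wald test (adjusted p = 0.0218). Des, the muscle intermediate filament gene desmin, overlapped, with 13.1, 8.04 and 19.5 CPM against 4.56, 9.74 and 8.31 CPM (log2 fold change 0.86 with SE 0.38, adjusted p = 0.255). Ldb3 had a log2 fold change of 0.24. Tcap and Ckm, the telethonin and muscle creatine kinase genes, were not tested, with 12 and 9, and 2 and 2 counts in DKO and control libraries.

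Smooth muscle and shared contractile genes were the most abundant class, and Actg2 was its 1 call. Of 9 tested, 1 rose and 8 were not called, with a median log2 fold change of 0.26. Actg2 (chromosome 6, 83512909 to 83536251, minus strand), gamma-actin of visceral smooth muscle, had 3.83, 3.72 and 1.36 CPM in DKO against 0.537, 0.449 and 0.923 CPM in controls (log2 fold change by edgeR 2.21 with SE 0.46, adjusted p = 0.0448). DKO replicate 3 lay much nearer the controls than the other 2 DKO libraries. The call ended in 8 of 13 alternatives. These included limma-voom (adjusted p = 0.097), the replicate block (0.0522), a filter of 1 CPM in 3 libraries (0.0518) and each fit without 1 library other than DKO replicate 3 (0.0843 to 0.177).

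Acta2, the vascular smooth muscle actin gene, had 14.3, 10.8 and 7.42 CPM in DKO against 6.22, 4.13 and 9.02 CPM in control libraries (log2 fold change by edgeR 0.74 with SE 0.32, adjusted p = 0.244). Mylk, which encodes the smooth muscle and non-muscle light chain kinase, had 26.4, 33.1 and 23.5 CPM against 23.4, 18.8 and 19.1 CPM (log2 fold change 0.43 with SE 0.15, adjusted p = 0.155). Acta2 overlapped between groups, and Mylk was apart by a narrow margin. The regulatory light chain gene Myl9 had 65.6, 65.3 and 36.9 CPM against 50.3, 52.9 and 43.5 CPM (log2 fold change 0.19, SE 0.22). It was lowest in DKO replicate 3 and was called higher without that library (log2 fold change 0.42, adjusted p = 0.0413). Tpm1, alpha-tropomyosin, the most abundant member, had 196, 229 and 151 CPM against 188, 188 and 159 CPM (log2 fold change 0.11, SE 0.15). The smooth muscle markers Myh11, Tagln and Cnn1 had log2 fold changes of 0.65, 0.26 and -0.58, and Tpm2 of -0.08.

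The regulators showed no called change. Of 7 genes, 5 were tested and 0 were called, with a median log2 fold change of 0.24. Myf5, the first muscle determination factor in the arches, had 0.754, 0.457 and 0.916 CPM in DKO against 0.335, 0.628 and 0.479 CPM in control libraries (log2 fold change by edgeR 0.60 with SE 0.38, adjusted p = 0.401). Myod1 had 0.754, 0.297 and 0.134 CPM against 0.47, 0.179 and 0.273 CPM (log2 fold change 0.24 with SE 0.64, adjusted p = 0.869). Myog, which drives differentiation, had 0.835, 0.594 and 0.268 CPM against 0.559, 0.314 and 0.342 CPM (log2 fold change 0.42 with SE 0.47, adjusted p = 0.65). All 3 overlapped between groups. With 6 to 41 counts in a DKO library and 4 to 25 in a control library, the differences of these genes are imprecise, as their SEs show.

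Myod1 and Myog were lowest in DKO replicate 3, the library in which Myh6, Myh7, Tnni1 and Des were highest. Other genes went differently. Myf5 was highest in that library, and Myl1, Tnnt3, Neb, Mylk3 and Actg2 were lowest there among the DKO libraries. Myf6 was at 4, 3 and 0 counts in DKO and 0, 4 and 2 counts in control libraries. Pax7, known in muscle stem cells and also in cranial neural crest, was far more abundant, with 71.0, 60.4 and 73.0 CPM against 66.1, 69.5 and 75.8 CPM (log2 fold change by edgeR -0.05 with SE 0.09, adjusted p = 0.817). Its sign turned with scaling by library size (0.032) and without DKO replicate 2 or control replicate 3. Msc, a factor of head muscle precursors, had 1.81, 1.78 and 1.52 CPM against 1.54, 1.62 and 1.5 CPM (log2 fold change 0.13, SE 0.21). Tcf21, its partner in head mesoderm, had 0, 4 and 6 counts against 5, 2 and 9 counts.

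Markers of other cells that the sort could hold were read beside these genes, and their part in the results was not tested. In bulk RNA, fewer cells of a type and less RNA per cell cannot be told apart. The 10 myoblast markers, of which 9 were tested and 0 called, summed to 206 to 248 CPM in DKO and 199 to 244 CPM in control libraries. That sum is carried by Pax7, Pax3 and Megf10, which crest cells also express. The sum of Myf5, Myod1, Myog and Myf6 was 2.45, 1.42 and 1.32 CPM in DKO and 1.36, 1.30 and 1.16 CPM in controls. It was taken after the values were seen, and it overlapped between groups. The 15 markers of head and heart mesoderm, of which 10 were tested and 0 called, summed to 221 to 246 CPM in DKO libraries. Every control library was higher, at 251 to 290 CPM. Most of this mesoderm sum comes from Hand2, Foxc2, Isl1 and Lhx2. Their mean levels were 87.3, 55.1, 44.2 and 27.1 CPM over the DKO libraries, against 99.3, 54.3, 59.3 and 36.6 CPM over the controls. Whether the sum follows the amount of mesoderm in the sort was not tested. Singled out after their values were seen, Gata4, which marks heart mesoderm, had 1, 0 and 26 counts in DKO against 1, 1 and 1, and Tbx20 had 36, 43 and 149 against 53, 32 and 40. Nkx2-5 and Tbx5, also of heart mesoderm, had 5, 11 and 7 counts against 10, 2 and 14, and 3, 17 and 7 against 18, 5 and 1. DKO replicate 3 was the highest library for Gata4 and Tbx20 and not for Nkx2-5 or Tbx5. Of the 8 called genes, Myh6, Myh7 and Tnni1 were highest in DKO replicate 3, and Myl1, Tnnt3, Neb, Mylk3 and Actg2 were lowest there among the DKO libraries.

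The summed cardiomyocyte and endothelial markers were higher in every DKO library than in any control library, though no list was tested. The 10 cardiomyocyte markers include Myh6 and summed to 3.85 to 5.23 CPM in DKO and 2.97 to 3.13 CPM in controls. Without Myh6, left out after the values were seen, the sums were 2.88 to 3.80 CPM and 2.64 to 2.74 CPM, still apart. These sums hold Nppb and Tnnt2, with means of 0.506 and 0.44 CPM in DKO against 0.12 and 0.0861 CPM in controls. Of the 10 cardiomyocyte markers 4 were tested and Myh6 alone was called. Myh6, Nppb (log2 fold change 1.93) and the untested Tnnt2 (54 against 8 counts) had every DKO library above every control library. This held for 14.5% of all tested genes. Nppb had every control library under 0.254 CPM, so it passed the filter through DKO libraries alone. The other 7 markers overlapped. Among those 7, Myl7 and Tnni3 had log2 fold changes of 0.46 and -0.13, Myl2 had 1 count over all 6 libraries, and Nppa had 0, 1 and 2 counts against 0, 0 and 1. The 10 endothelial markers summed to 41.3 to 51.5 CPM in DKO and 27.2 to 35.3 CPM in controls, with 9 tested and 1 called, the receptor gene Tie1 (log2 fold change 3.04). Without Tie1, also left out after the values were seen, the sums overlapped, at 33.4 to 42.5 CPM and 26.4 to 34.2 CPM. All 9 tested endothelial markers had log2 fold changes above 0, as did 7096 of all 14555 tested genes. Pecam1 (log2 fold change 0.79) and Emcn (0.99), named after their values were seen, were not called. Like Tie1, they had every DKO library above every control library, as 14.5% of all tested genes did. The 7 smooth muscle and pericyte markers summed to 625 to 636 CPM and 636 to 671 CPM, with 0 called. The 8 epithelial markers summed to 18.1 to 29.7 CPM and 22.1 to 26.4 CPM, with 0 called. Blood markers, 8 in all with 0 called, ranged most, from 18.9 to 308 CPM in DKO and 97.0 to 171 CPM in control libraries.

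**Figure D3:**
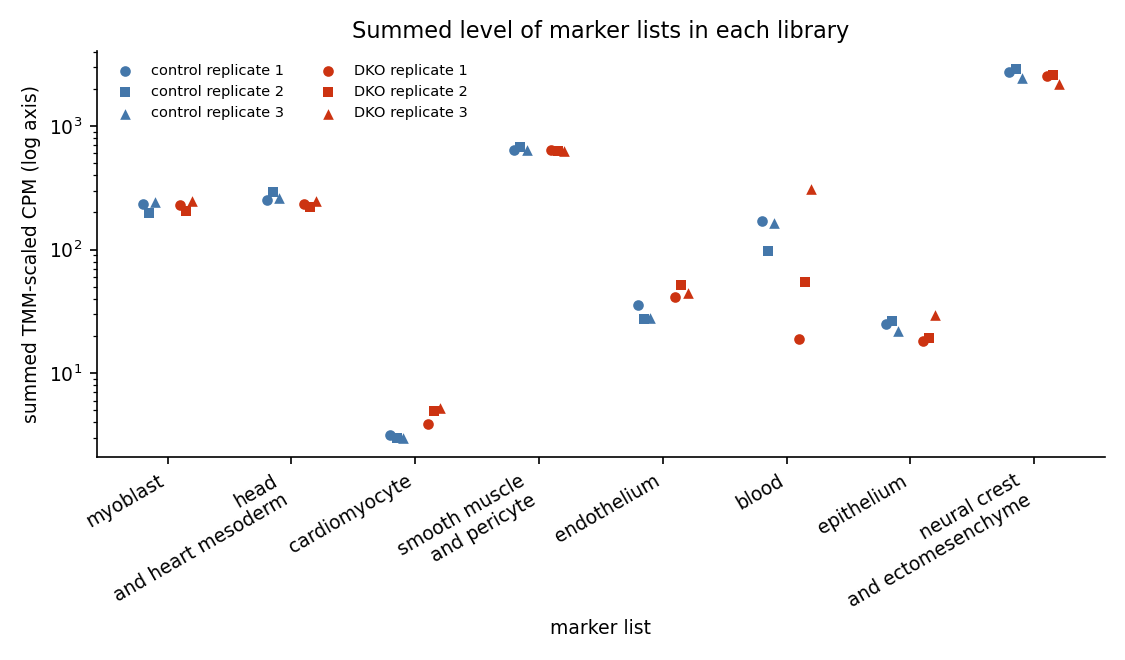
Summed TMM-scaled CPM of each marker list in each library on a log axis, with controls in blue, DKO in red and the replicate number given by the marker shape. The myoblast and smooth muscle sums, each carried by a few abundant genes, lie at like levels in both groups. The cardiomyocyte sum is the lowest and higher in DKO, and the blood sum spans 18.9 to 308 CPM among DKO libraries.

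Within 100 kb of the 8 genes that rose lie 34 other genes of the table, of which 28 were tested and 0 called by edgeR, where 3.01% of all tested genes were called, so the count is near the background. They had log2 fold changes between -0.42 and 0.84 and a median of 0.07. The highest was Tnni2, which lies 54.4 kb upstream of Tnnt3. Rif1 and Arl5a, which flank Neb, had log2 fold changes of -0.15 and -0.17. Orc6 and Vps35, downstream of Mylk3, had -0.04 and -0.23. Lancl1 and Acadl, on either side of Myl1, had 0.08 and -0.09. The exception within the members was the pair of Myh6 and Myh7, where both neighbours were called. Cmtm5, whose RefSeq span overlaps that of Myh6, had a log2 fold change of 0.06.

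**Figure D4:**
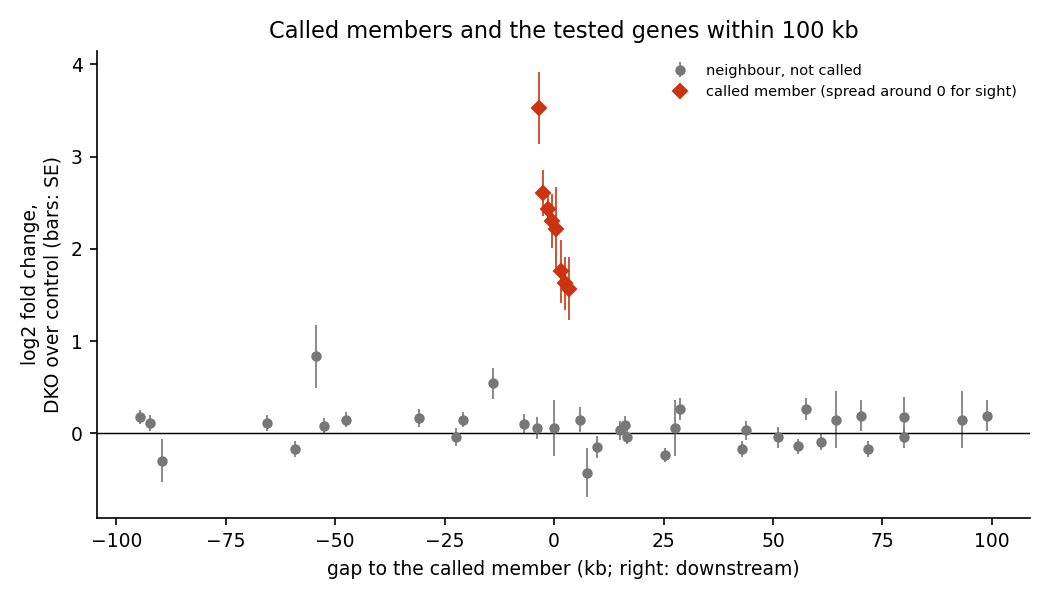
Log2 fold change, DKO over control, of the 8 called genes (red) and of the tested genes within 100 kb of them (grey), against the gap in kb, with downstream to the right and bars of 1 standard error. The called genes lie between 1.57 and 3.53 and the neighbours between -0.42 and 0.84, with none of the neighbours called. Called genes are spread around 0 only to be seen apart, and genes near both Myh6 and Myh7 appear at each gap.

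Levels per length show where the risen genes stand among the others. On the scale of mean CPM per kb of merged exon (GENCODE M21), Mylk3 moved from place 9 of the 37 skeletal, cardiac and shared genes in controls (0.64) to place 2 in DKO (3.46), behind Des (3.61). Tnnt3 moved from place 14 (0.322) to place 5 (1.97), next to Mylpf (2.01). Myl1 went from place 26 (0.0326) to place 16 (0.417). Neb, whose merged exons span 26.6 kb, stayed low per length, at 0.156 in DKO and 0.0311 in controls. Among uncalled genes, Actc1 measured 2.89 and 1.72, and Actn3 1.24 and 1.62. These places are from group means and were not tested.

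Close copies and overlapping genes limit some of these values, since no source used here names the counting program or its strand setting, though the library kit keeps strand. Outside the pair of Myh6 and Myh7, the longest identical run between a called member's transcript and a listed paralog's was 59 bases, between Myh6 or Myh7 and Myh1. It was 38 bases for Actg2 (with Actc1), 25 for Myl1 (with Myl4), 22 for Tnni1, 19 for Mylk3 and 17 for Tnnt3 and for Neb. GENCODE M21 places genes on the opposite strand over Tnnt3, Neb, Mylk3, Myh6 and Myh7, and none over Myl1, Tnni1 or Actg2, so for the first 5 a gene and its antisense partner may not be told apart.

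The share of other muscle genes that rose was near that of all tested genes. Of 83 genes of muscle excitation, fusion, Z-disc, heart, smooth muscle and muscle transcription, 58 were tested, 1 rose (1.72%, against 2.19% of all tested genes) and 0 fell, with a median log2 fold change of 0.11. The lists differed, and the striated ones leaned up. The median was 0.34 in the skeletal list (14 of 18 above 0) and 0.61 in the cardiac and shared striated list (10 of 13 above 0). Over all tested genes, 7096 of 14555 were above 0. In the cardiac and shared striated list, Nppb and Alpk3 had every control library under 0.254 CPM and passed the filter through DKO libraries alone. The median was 0.06 in the smooth muscle list and -0.02 in the transcription list, against -0.01 over all tested genes. The skeletal list had 0 of 18 called, and its most abundant members Cacnb1 and Ryr1, a calcium channel subunit and the calcium release channel, had log2 fold changes of 0.16 and 0.36. The smooth muscle list had 0 of 10 called, with Cald1 at -0.15 and Notch3 at -0.08.

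Transcription factors of muscle gene control were 0 of 17 called. Srf, serum response factor, had a log2 fold change of 0.28 with an SE of 0.10 (by edgeR, adjusted p = 0.164) and was called without DKO replicate 3 (adjusted p = 0.0382), and Id3 had 0.09. Of the 58 tested genes of these lists, 15 had every DKO library above every control library and 3 (Myl6b, Srl and Tead1) every DKO library below, where 14.5% and 12.7% of all tested genes did. The uncalled genes of the first kind with the smallest adjusted p by edgeR were Myot (log2 fold change 1.43, adjusted p = 0.0556), Nppb (1.93, 0.0568) and Cmya5 (1.26, 0.0614). Nppb passed the filter through its DKO libraries alone, so for Nppb the filter itself asked for a difference. All 6 genes were named after their values were seen. Pln and Hspb7, genes of heart muscle, had 0 counts in all 6 libraries.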

How the data were processed

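RNA was measured in 3 DKO and 3 control libraries of sorted arch cells. The authors deposited whole-number counts per gene symbol, not normalized, and the submitters' processing notes name STAR 2.7.10a, Picard, Trim Galore and build mm10, with no roles. No source used here names the counting program, its strand setting or the annotation. The library kit was stranded, per the labels. Controls are the columns named WT, matched to the labels by genotype and replicate number.

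The test was edgeR 4.0.16 (R 4.3.3) after filterByExpr by group, at a minimum count of 10 and a total of 15, TMM scaling, and the robust quasi-likelihood test with group as the only term, 2-sided. Benjamini-Hochberg adjustment ran over 14555 genes, and genes were called below 0.05, with no minimum fold. The standard error is the log2 fold change over the root of F. The fit was tested on simulated data. Errors given as SE cover the 3 libraries of each group, and counts under about 10 per library are imprecise.

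The members, their classes and the other lists were chosen with earlier results of these data known. The rule for named genes takes each called member, each regulator, and in each class up to 2 uncalled members with the highest level and 2 with the smallest adjusted p. From each further muscle list it takes up to 4 called genes, or the 2 most abundant; 1 called gene of these lists is not reported here. The marker lists are named with their sums. Sequences, coordinates and gene spans are RefSeq's (GRCm38.p6), and exon lengths and transcripts are from GENCODE M21. Alternatives tried were RLE size factors, library size only, 2 other filters, DESeq2 1.42.0, limma-voom 3.58.1, a replicate block, and each library left out.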

Additional observations from a re-analysis of the deposited data

How the results depend on the processing

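Myl1, Tnnt3, Neb and Mylk3 kept their direction and their call under every alternative that tested them. Tnni1, Myh6, Myh7 and Actg2 kept their direction, and lost the call in 5, 5, 9 and 8 alternatives. In place of 8 members called, a filter of 1 CPM in 3 libraries, which tests 23 members, called 3, and leaving out 1 library called 4 to 10. All genes called numbered 438; DESeq2 called 1106, and leaving out 1 library called 131 (DKO replicate 1) to 1106 (DKO replicate 3). The share of calls that were higher was 72.8% with TMM and 83.9% with library size only. The other muscle genes had 1 call, 2 with library size only, and 1 to 7 with 1 library left out. Among uncalled genes the log2 fold change turned sign for Myod1 with limma-voom (-0.0099) and for Pax7 with library size only (0.032). With 1 library left out it ran from -0.59 to 0.74 for Myod1, -0.10 to 0.032 for Pax7, -0.37 to 0.033 for Mybpc1, -0.070 to 0.29 for Nebl, -0.036 to 0.25 for Tpm1 and -0.078 to 0.29 for Id3. The cause was not tested, and fits with fewer libraries have less power. Same-numbered libraries had correlations of deviations of 0.05, -0.03 and 0.36, and differently numbered ones between -0.39 and 0.45. With 3 libraries per group, these values cannot show whether replicate numbers pair the samples. With the replicate block 7 members and 619 genes were called. Depth limits the myogenic regulators, where a library holds few counts.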
